A study of Mus musculus with 16 samples.

Results

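The genes described are 10 enzymes of amino acid and folate metabolism, chosen by name out of 54193 annotated genes. They are Phgdh, Psat1 and Psph, which make serine, Shmt1 and Shmt2, which split serine, Mthfd2, Mthfd1l and Aldh1l2, which handle folate-bound carbon in mitochondria, Asns, which makes asparagine, and Pycr1, which makes proline. The expected counts of each gene's transcripts were summed in 16 RNA-seq libraries of mouse brain microvascular endothelial cells (mBMEC), and 6 groups were compared. The cells came from adult Cdh5(PAC)-CreERT2/Pdcd10 fl/fl mice of 8 to 10 weeks, so that every culture carried the floxed allele of Ccm3 (Pdcd10) and a tamoxifen-inducible Cre recombinase driven by the endothelial Cdh5 promoter. WT cells had received no 4-OH-tamoxifen (4-OHT) and KO cells had received it, so exposure to 4-OHT and loss of Ccm3 cannot be told apart. Both genotypes were left untreated (WT and KO, 3 libraries each), given propranolol at 10 µM for 24 h (WT+P, 2 libraries, and KO+P, 3 libraries) or given rapamycin at 100 nM, also for 24 h (WT+R, 2 libraries, and KO+R, 3 libraries). Cells were selected with puromycin, used at passage 2, and each culture was prepared from pooled brains.

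Serine is made from a glycolytic intermediate in consecutive steps by Phgdh, Psat1 and Psph. The serine hydroxymethyltransferases then move a carbon from serine to tetrahydrofolate, and the mitochondrial folate enzymes carry that carbon to formate, which supplies purine and thymidylate synthesis. Genes of serine, asparagine and proline synthesis are textbook targets of ATF4, a transcription factor made when cells lack amino acids or meet endoplasmic reticulum or mitochondrial stress, and its translation also depends on mTORC1. Propranolol blocks beta-adrenergic receptors, and rapamycin inhibits mTORC1.

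The libraries held 18.8 to 26.2 M counts, and all 10 enzymes passed the filter on low counts among 14838 tested genes. Endothelial markers summed to 6424 to 13229 CPM (counts scaled to the library's TMM-corrected size). Microglial and macrophage markers summed to 0.178 to 1.60 CPM, and Gfap and Aqp4 of astrocytes did not exceed 0.149 CPM. Gja1 of the astrocyte list stood at 31.2 to 102 CPM, and mural markers summed to 51.1 to 632 CPM. Fibroblast markers summed to 4.79 to 202 CPM and were highest in replicate 3 of WT, KO, KO+P and KO+R. Ccm3 stood at 9.72, 11.0 and 9.72 CPM in the KO libraries and at 11.5, 31.1 and 47.0 CPM in the WT libraries, so that the library labelled WT replicate 1 lay near the KO level. The comparisons with WT called no enzyme with that library, so none could be lost, and none was gained when it was left out. The libraries were labelled biological replicates, and same-numbered libraries deviated together from their group means, though to unequal degrees (Pearson's r 0.032 to 0.693). In such bulk samples fewer expressing cells and less RNA per cell cannot be told apart.

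Because 9 of the enzymes varied together, their start sites were searched for the core of the amino acid response element that ATF4 dimers bind, TGATGNAA, read on both strands (TTNCATCA on the other strand). A window of 1000 bases before to 1000 bases after the start of the most abundant transcript held a match in 7 of the 10 enzymes (70%), and in 18.29% of 14837 tested genes with a window. This window was chosen after a shorter one, from 250 bases before to 50 bases after the start, had given a match in 1 of the 10 enzymes against 2.541% of tested genes. The matches with 8 bases on each side are printed here because they are what most of these enzymes share in sequence near their start, with the match in capitals, 5′ to 3′ on the strand of the gene in GRCm39.
Phgdh, intron, chr3:98246527-98246550: cttttgtcTGATGCAAgaccttgg
Shmt2, intron, chr10:127357818-127357841: tatggagaTGATGCAAccgagcct
Shmt2, intron, chr10:127357796-127357819: ctcagtacTTTCATCAcgcaaggg
Mthfd2, intron, chr6:83294154-83294177: ctgcagtcTGATGAAAtctgtgag
Mthfd1l, intron, chr10:3923751-3923774: tccggctcTGATGCAAccgcgccg
Aldh1l2, intron, chr10:83369251-83369274: acgtgggaTTGCATCAgatcactt
Asns, exon outside the coding sequence, chr6:7693217-7693240: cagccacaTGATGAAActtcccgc
Pycr1, upstream of the start, chr11:120534662-120534685: cctgtgtaTGATGCAAtgcacaag

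The match of Pycr1 lay 79 bases before the start, and those of the other genes 436 to 765 bases after it. Phgdh, Shmt2, Mthfd1l and Pycr1 shared the letters TGATGCAA on the strand of the gene. The matches of Aldh1l2 and the second one of Shmt2 read on the other strand. Psat1, Psph and Shmt1 held no match in this window. The letters describe the sequence only, and no binding was measured.

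Propranolol-treated libraries of both genotypes held more RNA of 9 of the 10 enzymes than untreated ones, and Shmt1, the cytosolic enzyme, was the exception. The median log2 fold change over the 10 enzymes was 2.12 in KO cells and 2.15 in WT cells, against −0.01 and 0.00 over all tested genes. Aldh1l2, Mthfd2 and Asns had the largest differences and Mthfd1l the smallest of the 9. The replicates differed widely, and with Benjamini-Hochberg adjustment over all tested genes edgeR's quasi-likelihood test called none of the 10 enzymes in either genotype.

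Calls required an adjusted p under 0.05 and a fold change above 1.5, and 0.00674% of tested genes met them in KO+P vs KO and likewise 0.00674% in WT+P vs WT. At an unadjusted p under 0.05, 9 enzymes were higher and Shmt1 was lower in KO+P vs KO, and 8 were higher in WT+P vs WT, where 12.6% and 9.87% of tested genes had such a p in either direction. In KO cells 8 enzymes were higher in every treated than in every untreated library, which 9.58% of tested genes were, and in WT cells 9 were, against 10.8% of tested genes. DESeq2 called 8 enzymes higher in KO cells (0.910% of genes) and 6 in WT cells (0.748% of genes), namely Aldh1l2, Asns, Mthfd2, Phgdh, Psat1 and Shmt2. With the replicate number as a blocking factor DESeq2 also called 8 in KO cells (2.84% of genes) and 6 in WT cells (0.964% of genes), but in WT cells Phgdh and Psat1 were lost and Psph and Pycr1 gained. In edgeR this block gave 1 call in KO cells, Psph, where 0.135% of genes were called higher, and none in WT cells.

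The treated libraries differed from each other in the same way for most enzymes. Within KO+P, replicate 1 was the highest and replicate 3 the lowest library for the same 9 enzymes, and within WT+P replicate 1 was higher than replicate 2 for all 10. Without KO+P replicate 3, edgeR called 7 enzymes higher in KO cells (1.16% of genes), and without WT+P replicate 2 it called 6 in WT cells (2.77% of genes). Without KO+P replicate 1 no enzyme was called, at edgeR adjusted p values of at least 0.470, and 1 of 14770 tested genes was called, lower. The median log2 fold change over the 10 enzymes was then 1.65 in KO cells, with Asns at 2.15. Without WT+P replicate 1, which also left 1 library, the median was 1.21 in WT cells, with Asns at 1.47. Without KO+P replicate 2 no enzyme was called either, at a median of 2.03, and again 1 of 14796 tested genes was called, lower. In each of these fits 9 enzymes had a log2 fold change above 0. Within replicate numbers the same 9 enzymes were higher with propranolol in all 3 pairs in KO cells, as 24.8% of tested genes were, and in both pairs in WT cells, as 30.6% were.

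The summed endothelial markers ran the other way, at 6819, 8596 and 10173 CPM in KO+P replicates 1 to 3 and 10742 to 11772 CPM in KO libraries, and at 6424 and 9782 CPM in WT+P against 10169 to 13229 CPM in WT. Astrocyte markers summed to 68.3 to 102 CPM in KO+P and 35.5 to 64.6 CPM in KO, nearly all of it Gja1, since Gfap, Aqp4, Slc1a2, Slc1a3 and S100b each stayed at or under 0.304 CPM. Proliferation markers summed to 225 to 457 CPM in KO+P and 424 to 892 CPM in KO. Oligodendrocyte markers summed to 29.0 to 44.3 CPM in KO+P and 48.8 to 58.6 CPM in KO. Fibroblast markers summed to 4.79, 20.9 and 77.0 CPM in KO+P replicates 1 to 3 and to 12.0, 26.4 and 150 CPM in KO. Mural markers summed to 182 and 327 CPM in WT+P and 51.1 to 184 CPM in WT, mostly Acta2, at 171 and 310 CPM in WT+P and 32.5 to 170 CPM in WT. The part of these markers in the result was not tested.

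**Figure D1:**
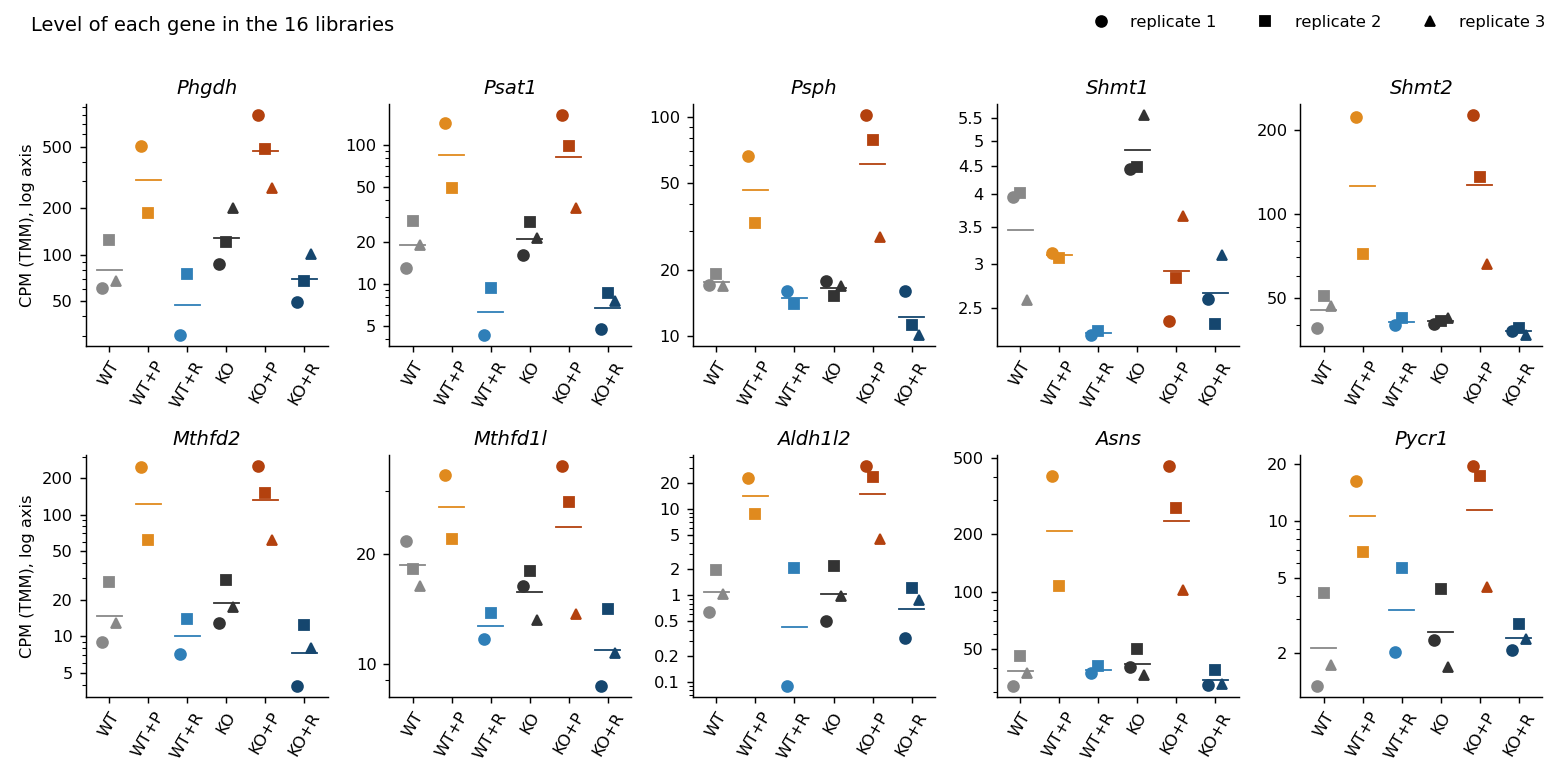
Level of each of the 10 enzymes in every library, in CPM scaled by TMM on log axes that differ between panels, with a symbol for each replicate number and a bar at the geometric mean of each group. The propranolol libraries of 9 enzymes stand above the untreated ones of the same genotype, apart from the overlap of Mthfd1l in KO cells, and those of Shmt1 do not.

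Of the serine synthesis enzymes, Phgdh (ENSMUSG00000053398.13, chr3:98220484-98255047, minus strand), the dehydrogenase of the first step, stood at 60.9, 124 and 67.4 CPM in WT and at 87.5, 121 and 199 CPM in KO libraries. With propranolol it reached 505 and 185 CPM in WT and 794, 483 and 268 CPM in KO cells, and no treated library overlapped the untreated ones of its genotype. With rapamycin it stood at 30.4 and 74.8 CPM in WT and at 50.0, 68.2 and 102 CPM in KO cells, which overlapped the untreated libraries. Within each replicate number it was lower with rapamycin, with log2 differences of −0.97 to −0.81 over 3 pairs in KO and −1.0 to −0.73 over 2 pairs in WT cells. Under propranolol its log2 fold change was 1.92 (95% interval 0.78 to 3.06, edgeR adjusted p = 0.262) in KO and 2.04 (0.81 to 3.26, adjusted p = 0.327) in WT cells. Phgdh has an annotated copy, Phgdh-ps1, to which no reads were assigned.

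Psat1 (ENSMUSG00000024640.11, chr19:15882039-15924701, minus strand), the aminotransferase of the pathway, stood at 12.9, 28.2 and 19.1 CPM in WT and at 16.1, 27.6 and 21.2 CPM in KO libraries. With propranolol the values were 144 and 48.8 CPM in WT and 162, 97.6 and 35.0 CPM in KO cells, all above the untreated libraries. With rapamycin they were 4.29 and 9.28 CPM in WT and 4.76, 8.65 and 7.48 CPM in KO cells, all below the untreated libraries, so that the 3 conditions separated fully in both genotypes. Propranolol against no drug gave a log2 fold change of 2.18 (95% interval 1.00 to 3.37, edgeR adjusted p = 0.219) in KO and 2.26 (1.00 to 3.53, adjusted p = 0.290) in WT cells.

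Psph (ENSMUSG00000029446.16, chr5:129841925-129864513, minus strand), the phosphatase of the last step, varied little without propranolol, at 17.1, 19.2 and 16.9 CPM in WT and 17.7, 15.2 and 16.9 CPM in KO libraries. Propranolol-treated libraries held 65.9 and 32.6 CPM in WT and 101, 78.6 and 28.3 CPM in KO cells, again without overlap. The rapamycin libraries held 16.0 and 14.0 CPM in WT and 16.0, 11.3 and 10.1 CPM in KO cells. In KO cells the log2 fold change with propranolol was 2.06 (95% interval 1.25 to 2.88), with an edgeR adjusted p of 0.109, or 0.0409 with the replicate block. In WT cells it was 1.47 (0.60 to 2.35, edgeR adjusted p = 0.316). Exons of Cct6a on the other strand cover 6.32% of its exonic bases, and without strand such reads cannot be told apart.

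The serine hydroxymethyltransferases differed from each other. Shmt2 (ENSMUSG00000025403.7, chr10:127352266-127358323, minus strand), the mitochondrial form, stood at 39.0, 50.9 and 46.7 CPM in WT and at 40.2, 41.4 and 42.3 CPM in KO libraries, with propranolol at 224 and 71.6 CPM in WT and 226, 136 and 66.1 CPM in KO cells, and with rapamycin at 39.9 and 42.2 CPM in WT and 37.9, 39.1 and 36.8 CPM in KO cells. Only the propranolol libraries departed from a narrow range. Its log2 fold change with propranolol was 1.79 (95% interval 0.92 to 2.67, edgeR adjusted p = 0.190) in KO and 1.70 (0.76 to 2.64, adjusted p = 0.286) in WT cells. Of the exonic bases of Shmt2, 17.7% are shared with Ndufa4l2 on the other strand, the largest such share among the 10 genes.

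Shmt1 (ENSMUSG00000020534.16, chr11:60661185-60708167, minus strand), the cytosolic form, was low in all libraries, at 49 to 125 counts. It stood at 3.96, 4.03 and 2.58 CPM in WT, 3.14 and 3.07 CPM in WT+P and 2.24 and 2.28 CPM in WT+R. In KO cells it stood at 4.45, 4.48 and 5.55 CPM untreated, at 2.37, 2.83 and 3.66 CPM with propranolol and at 2.59, 2.34 and 3.12 CPM with rapamycin, so that the untreated KO libraries were the highest of all groups. Its log2 fold change with propranolol was −0.71 (95% interval −1.23 to −0.19, edgeR adjusted p = 0.325) in KO and −0.18 (−0.76 to 0.40, adjusted p = 0.878) in WT cells.

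In the mitochondrial folate pathway, Mthfd2 (ENSMUSG00000005667.10, chr6:83282673-83302890, minus strand), a dehydrogenase and cyclohydrolase, stood at 8.92, 27.9 and 12.9 CPM in WT and at 12.8, 29.1 and 17.4 CPM in KO libraries. Propranolol-treated libraries held 244 and 62.2 CPM in WT and 249, 151 and 61.4 CPM in KO cells. The rapamycin libraries held 7.20 and 13.9 CPM in WT and 3.92, 12.4 and 8.06 CPM in KO cells. Within each genotype the propranolol libraries stood apart from all others, and the KO+R libraries lay below all KO libraries. The log2 fold change with propranolol was 2.96 (95% interval 1.51 to 4.41, edgeR adjusted p = 0.190) in KO and 3.21 (1.66 to 4.75, adjusted p = 0.235) in WT cells.

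Mthfd1l (ENSMUSG00000040675.19, chr10:3922870-4117081, plus strand), the mitochondrial formyl-tetrahydrofolate synthetase, moved least of the 9. It stood at 21.7, 18.3 and 16.4 CPM in WT, 33.1 and 22.1 CPM in WT+P and 11.7 and 13.8 CPM in WT+R. In KO cells the values were 16.4, 17.9 and 13.2 CPM untreated, 35.0, 27.9 and 13.7 CPM with propranolol and 8.68, 14.1 and 10.7 CPM with rapamycin, and KO+P replicate 3 overlapped the untreated libraries. The log2 fold change with propranolol was 0.69 (95% interval 0.05 to 1.33, edgeR adjusted p = 0.372) in KO and 0.56 (−0.15 to 1.26, adjusted p = 0.584) in WT cells.

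Aldh1l2 (ENSMUSG00000020256.16, chr10:83323314-83370005, minus strand), which oxidises formyl-tetrahydrofolate in mitochondria, was nearly silent without propranolol, at 0.644, 1.94 and 1.02 CPM in WT and 0.503, 2.20 and 0.977 CPM in KO libraries. With propranolol it reached 22.7 and 8.75 CPM in WT and 31.0, 23.7 and 4.49 CPM in KO cells. With rapamycin it stood at 0.0895 and 2.06 CPM in WT, the lower library holding 2 counts, and at 0.318, 1.23 and 0.891 CPM in KO cells. The propranolol libraries were the only ones above 3 CPM. Its log2 fold change with propranolol was the largest of the 10 enzymes, at 4.00 (95% interval 1.89 to 6.10, edgeR adjusted p = 0.204) in KO and 3.69 (1.52 to 5.87, adjusted p = 0.316) in WT cells. Nopchap1 on the other strand shares 14.1% of its exonic bases.

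Asns (ENSMUSG00000029752.14, chr6:7671667-7728461, minus strand), asparagine synthetase, stood at 32.2, 46.3 and 37.8 CPM in WT and at 40.6, 50.3 and 36.6 CPM in KO libraries. With propranolol it stood at 403 and 108 CPM in WT and at 452, 275 and 102 CPM in KO cells. With rapamycin the values were 37.5 and 41.0 CPM in WT and 32.4, 38.9 and 32.9 CPM in KO cells. Untreated and rapamycin libraries overlapped in both genotypes, while the lowest propranolol library exceeded the highest of them. The log2 fold change with propranolol was 2.70 (95% interval 1.62 to 3.78, edgeR adjusted p = 0.109) in KO and 2.72 (1.58 to 3.86, adjusted p = 0.132) in WT cells. Between same-numbered KO+P and KO libraries it was 3.47, 2.45 and 1.47 for replicates 1, 2 and 3.

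Pycr1 (ENSMUSG00000025140.17, chr11:120526484-120539269, minus strand), the reductase of the last step of proline synthesis, was also low, at 1.33, 4.14 and 1.72 CPM in WT and 2.32, 4.32 and 1.69 CPM in KO libraries. With propranolol it reached 16.3 and 6.82 CPM in WT and 19.4, 17.2 and 4.44 CPM in KO cells. With rapamycin it stood at 2.01 and 5.63 CPM in WT and at 2.06, 2.83 and 2.36 CPM in KO cells. KO+P replicate 3 was barely above KO replicate 2. The log2 fold change with propranolol was 2.30 (95% interval 0.94 to 3.66, edgeR adjusted p = 0.262) in KO and 2.26 (0.81 to 3.71, adjusted p = 0.371) in WT cells.

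Rapamycin against untreated cells gave smaller differences, mostly downward. In KO cells all 10 enzymes had a log2 fold change below 0, with a median of −0.54 against −0.02 over all tested genes, and in WT cells 8 did, with a median of −0.40 against −0.01. Psat1 was the enzyme with the largest difference, at −1.63 (95% interval −2.83 to −0.44, edgeR adjusted p = 0.206) in KO and −1.56 (−2.94 to −0.19, adjusted p = 0.305) in WT cells. Mthfd2 followed in KO cells at −1.28 (−2.69 to 0.13, edgeR adjusted p = 0.455). Asns and Shmt2 were near their untreated levels, at −0.29 (−1.31 to 0.73) and −0.12 (−0.98 to 0.73) in KO and 0.02 (−1.12 to 1.16) and −0.15 (−1.11 to 0.81) in WT cells.

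EdgeR called none of the 10 enzymes in KO+R vs KO, where 1.51% of tested genes were called, nor in WT+R vs WT, where 1.40% were. At an unadjusted p under 0.05, Psat1 and Shmt1 were lower in each genotype, and 12.5% of tested genes in KO and 12.6% in WT cells had such a p in either direction. Shmt1 had a log2 fold change of −0.85 (95% interval −1.37 to −0.33) in KO cells, with an edgeR adjusted p of 0.125, and it was called with the replicate block at an adjusted p of 0.0488, where 3.04% of genes were called lower. DESeq2 called Psat1 (adjusted p = 0.0465) and Shmt1 (adjusted p = 0.0359) lower in KO cells, as it did 1.64% of genes, and none in WT cells. In KO cells 4 enzymes, Psat1, Shmt1, Shmt2 and Mthfd2, were lower in every treated library (13.2% of genes were), and in WT cells 4, Psat1, Psph, Shmt1 and Mthfd1l (14.7% of genes). Within replicate numbers, 9 enzymes, all but Pycr1, were lower with rapamycin in all 3 pairs of KO cells, as 31.2% of tested genes were. In both pairs of WT cells 6 enzymes were lower, Phgdh, Psat1, Psph, Shmt1, Mthfd2 and Mthfd1l, as 37.7% of tested genes were. Proliferation markers summed to 221 to 524 CPM in KO+R against 424 to 892 CPM in KO, and mural markers to 567 to 632 CPM in WT+R against 51.1 to 184 CPM in WT, mostly Acta2 (2.74, edgeR adjusted p = 0.0469). With the replicate block 5 proliferation markers were called lower in KO+R than in KO, as was Csf1r of microglia. The 5 were Mcm2, Mcm3, Mcm6, Ccna2 and Ccnb1, with log2 fold changes of −0.67 to −1.89. Emcn of endothelial cells was called higher in WT+R than in WT with this block (0.85, edgeR adjusted p = 0.0176). Of the 10 endothelial markers, 4 had a log2 fold change above 0 there and 6 below, with a median of −0.21. The endothelial markers summed to 9158 to 9718 CPM in WT+R and 10169 to 13229 CPM in WT. The part of these markers in the result was not tested.

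Set against each other, the drugs gave calls for most of the enzymes in KO cells. There 9 of the 10 enzymes, all but Shmt1, were lower with rapamycin than with propranolol and passed the test, while 2.51% of tested genes were called lower. Mthfd2 had a log2 fold change of −4.24 (95% interval −5.79 to −2.69, edgeR adjusted p = 0.00733). The largest difference was that of Aldh1l2, at −4.58 (−6.76 to −2.39, edgeR adjusted p = 0.0239), and the smallest of the 9 was that of Mthfd1l, at −1.19 (−1.84 to −0.55, edgeR adjusted p = 0.0393). Psat1 (−3.81) and Psph (−2.48) had the lowest p, each with an edgeR adjusted p of 0.00445. Shmt1 differed by −0.14 (−0.66 to 0.38, edgeR adjusted p = 0.809).

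For 8 of these enzymes no KO+R library reached the level of a KO+P library, which held for 13.9% of tested genes in that direction, and Mthfd1l overlapped by KO+P replicate 3 and KO+R replicate 2. The replicate block called the same 9 enzymes, where 5.62% of genes were called lower. Psat1, Psph, Mthfd2 and Asns passed with each of the 6 libraries left out in turn, with edgeR adjusted p values up to 0.0401. The total fell to 4 or 5 called enzymes without KO+P replicate 1 or 2 or without any KO+R library. Over all genes the calls in that direction fell too, from 372 to between 114 and 145 in those fits.

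Endothelial markers also differed between these groups, at a sum of 10137 to 11323 CPM in KO+R and 6819 to 10173 CPM in KO+P. With the replicate block Flt1 (0.72, edgeR adjusted p = 0.0159), Tie1 (0.68, edgeR adjusted p = 0.0161) and Kdr (2.00, edgeR adjusted p = 0.0204) of endothelial cells were called higher in KO+R, and Gja1 (−0.81, edgeR adjusted p = 0.0271) of the astrocyte list and Tubb3 (−1.85, edgeR adjusted p = 0.0469), a neuronal tubulin, lower. Csf1r of microglia was called lower with and without the block, at 0.333 to 0.568 CPM in KO+P and no more than 0.041 CPM in KO+R. The part of these markers in the result was not tested.

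In WT cells, with 2 libraries per drug, all 10 enzymes were lower in both rapamycin libraries than in both propranolol libraries, as were 19.4% of tested genes. EdgeR called Psat1 (log2 fold change −3.83, adjusted p = 0.0251) and Mthfd2 (−3.86, adjusted p = 0.0498), with 0.815% of genes called lower, and Asns missed the threshold (−2.70, adjusted p = 0.0504). The replicate block called 6 enzymes, adding Phgdh, Psph, Aldh1l2 and Asns, with 2.88% of genes called lower. Leaving out any of these libraries left 1 in its group, so such fits do not check the calls. In them the log2 fold change ran from −4.5 to −2.8 for Psat1, −4.5 to −2.6 for Mthfd2 and −3.4 to −1.5 for Asns. Endothelial markers summed to 9158 to 9718 CPM in WT+R and 6424 to 9782 CPM in WT+P, and mural markers to 567 to 632 and 182 to 327 CPM. Emcn was called higher in WT+R (1.13, edgeR adjusted p = 0.0406), and Flt1 with the replicate block (0.86, edgeR adjusted p = 0.0317). The part of these markers was not tested either.

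**Figure D2:**
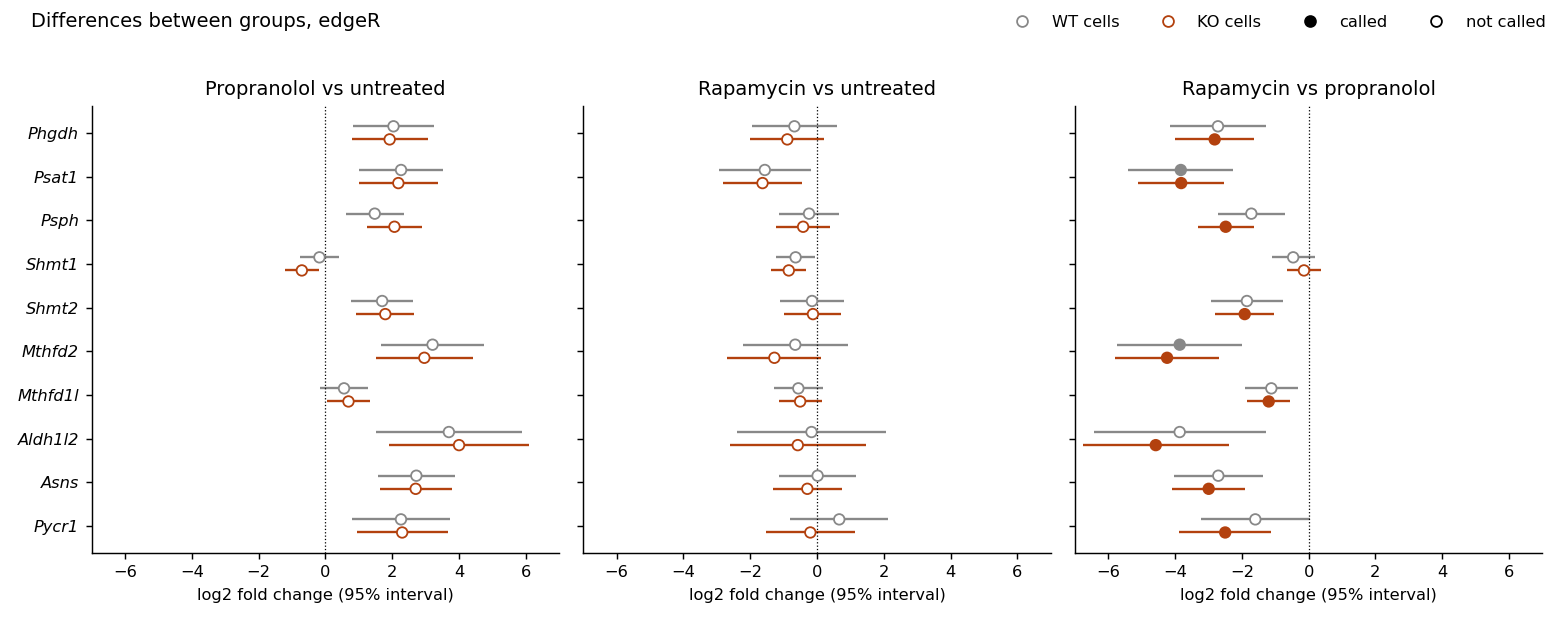
Log2 fold change of each of the 10 enzymes with its 95% interval from edgeR, in WT (grey) and KO cells (brown), for propranolol and rapamycin against untreated cells and for rapamycin against propranolol. Filled points, all in the right panel, are calls at an adjusted p under 0.05 and a fold change above 1.5, 9 in KO and 2 in WT cells, and Shmt1 is called nowhere.

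Loss of Ccm3 without drug gave no call among the 10 enzymes, in a comparison where edgeR called 0.00674% of tested genes, and at an unadjusted p under 0.05 there was none either, against 6.07% of tested genes. DESeq2 and the replicate block also called none. The log2 fold changes ran from −0.24 (Mthfd1l) to 0.69 (Phgdh), with a median of 0.12 against −0.01 over all tested genes. The 95% interval was −0.42 to 1.80 for Phgdh (edgeR adjusted p = 0.996) and −0.89 to 1.15 for Asns (edgeR adjusted p = 0.997). Differences within these bounds were compatible with the data. Shmt1 was the enzyme whose 3 KO libraries all exceeded the WT libraries, as those of 6.69% of genes did, at a log2 fold change of 0.45 (−0.06 to 0.97, edgeR adjusted p = 0.905).

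The response to propranolol was also compared between genotypes by an interaction term, the log2 fold change in KO minus that in WT cells. None of the 10 enzymes was called, and 0 of 10 had an unadjusted p under 0.05 for either drug. Of all tested genes 0% were called for either drug, and 0.721% for propranolol and 0.762% for rapamycin had such an unadjusted p. The interaction was 0.59 (95% interval −0.60 to 1.78) for Psph, −0.53 (−1.30 to 0.25) for Shmt1 and between −0.25 and 0.30 for the others. For Aldh1l2 the interval ran from −2.56 to 3.17, so that even large differences between genotypes were compatible with the data at this replication. With rapamycin the interaction lay between −0.87 (Pycr1, −2.85 to 1.12) and 0.05 (Mthfd1l, −0.91 to 1.02). DESeq2 and the replicate block called none.

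Levels of different enzymes were compared in TPM, an abundance scaled to transcript length and library size. The 10 enzymes together made up 193 to 305 TPM in KO, 504 to 1636 TPM in KO+P and 111 to 172 TPM in KO+R libraries. In WT cells the sums were 158 to 275, 476 to 1464 and 119 to 179 TPM in the same order. Phgdh was the most abundant of the 10 in 15 libraries, and Asns in WT+R replicate 1. Phgdh took 33.3 to 36.3% of the sum in WT+P and 39.7 to 48.8% in KO+P, and Asns 20.8 to 25.3% and 17.9 to 22.1%. Aldh1l2 and Shmt1 each stayed under 3% in all libraries.

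Mitochondrial Shmt2 exceeded cytosolic Shmt1 in TPM in all libraries. The ratio of Shmt2 to Shmt1 was 5.31 to 9.27 in KO, 24.5 to 97.6 in KO+P and 11.9 to 23.0 in KO+R libraries, without overlap between the 3 groups. In WT cells it was 7.21 to 18.5, in WT+P 26.2 to 56.4 and in WT+R 24.2 to 24.4. The untreated KO libraries were the highest in Shmt1 CPM. Shmt1 had only 49 to 125 counts per library, and its TPM did not follow its CPM closely. KO replicates 1 and 2 held 4.45 and 4.48 CPM of Shmt1 but 3.52 and 6.20 TPM, so these ratios are rough.

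**Figure D3:**
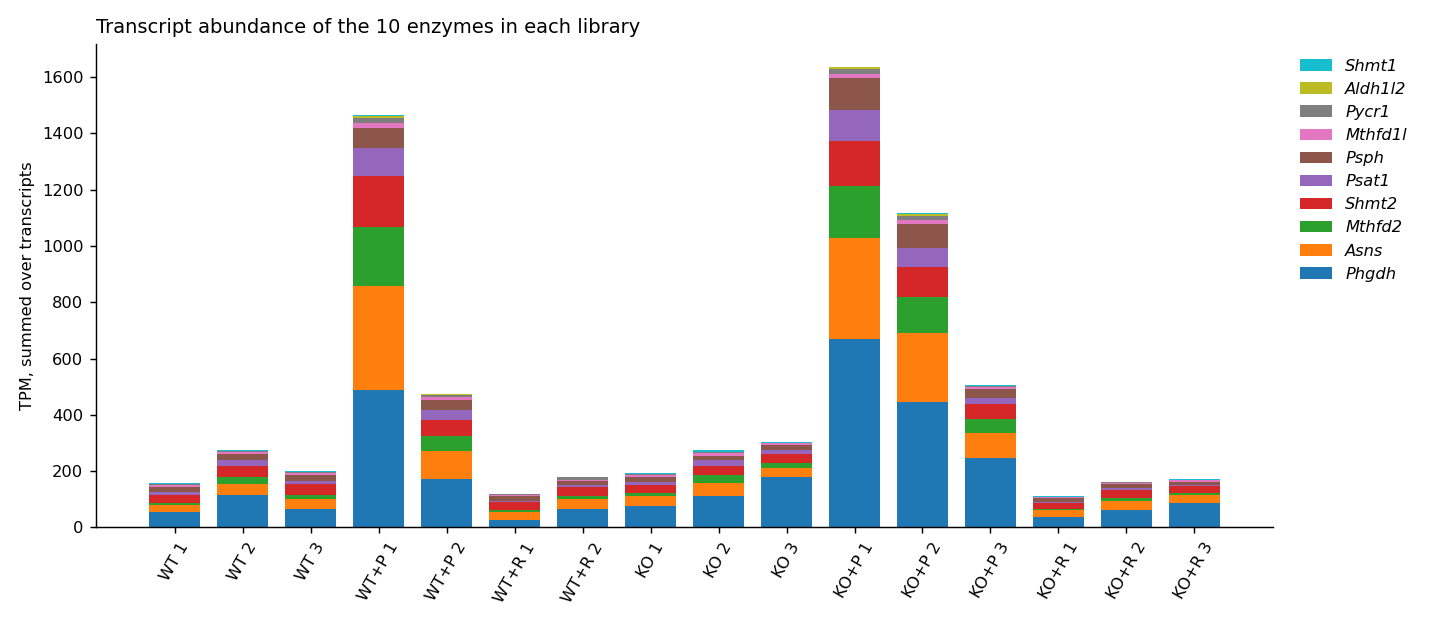
TPM of the 10 enzymes stacked for each of the 16 libraries, with the bars starting at 0. The propranolol bars run from 476 to 1636 TPM and all other bars from 111 to 305 TPM, and Phgdh makes up the largest part of 15 bars.

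Across the 16 libraries the log2 CPM of the enzymes followed each other. Over the 45 pairs of enzymes Pearson's r had a median of 0.89 and ran from −0.27 to 0.99, and the 9 pairs with Shmt1 were the lowest, at 0.14 or less. Shmt2 and Asns were the closest pair, at 0.99. These libraries share 6 groups and the cultures, so the coefficients are descriptions. The 5 other genes whose log2 CPM was most like the mean of the 10 enzymes, out of 12400 genes averaging at least 1 CPM, were Aldh18a1 (r = 0.98), which makes the precursor of proline, Gmppb (0.97), Pck2 (0.97), the mitochondrial phosphoenolpyruvate carboxykinase, Atf5 (0.97), a transcription factor, and Mllt11 (0.96).

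Other genes of the one-carbon cycle did not share the pattern. Of 27 listed genes, 26 were tested, and their median log2 fold change was 0.03 in KO+P vs KO and −0.06 in WT+P vs WT. EdgeR called none of them in any comparison, and at an unadjusted p under 0.05, 2 were higher in KO+P vs KO and 4 were higher and 1 lower in WT+P vs WT. Such a p was met by 12.6% and 9.87% of tested genes in either direction. With the replicate block Tyms, thymidylate synthase, was called lower in KO+R than in KO (−1.29, edgeR adjusted p = 0.0170). These are the libraries in which the proliferation markers summed to 221 to 524 and 424 to 892 CPM.

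Of 26 listed neighbours in amino acid metabolism, 23 were tested. Their median log2 fold change in KO+P vs KO was −0.05, and edgeR called none. At an unadjusted p under 0.05, 4 were higher, and 12.6% of tested genes had such a p in either direction. In KO+R vs KO+P edgeR called 5 of the 23, all lower, where 2.51% of tested genes were called lower. They were Bcat1 (−4.42, adjusted p = 0.0179), a branched-chain aminotransferase, Cth (−2.58, adjusted p = 0.0490), which makes cysteine, Gpt2 (−2.06, adjusted p = 0.0258), the mitochondrial alanine aminotransferase, Aldh18a1 (−1.74, adjusted p = 0.0116) and Got1 (−1.10, adjusted p = 0.0457), the cytosolic aspartate aminotransferase. Glul, glutamine synthetase, was called higher with rapamycin in KO cells (0.84, edgeR adjusted p = 0.0307) and in WT cells (0.86, edgeR adjusted p = 0.0474) with the replicate block and not without it.

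The list of ATF4 and its commonly named targets, 32 genes without the 10 enzymes, had a median log2 fold change of 1.25 in KO+P vs KO and 1.21 in WT+P vs WT. EdgeR called none in either, while 28 and 27 were higher at an unadjusted p under 0.05. Of all tested genes 12.6% and 9.87% had such a p in either direction. The replicate block called Nupr1 in KO cells (2.73, edgeR adjusted p = 0.0158), where 0.135% of genes were called higher. Atf4 itself stood at 220, 214 and 217 CPM in KO, 1046, 582 and 414 CPM in KO+P and 200, 150 and 174 CPM in KO+R libraries. As with the enzymes, KO+P replicate 1 was the highest and replicate 3 the lowest of its group. In KO+R vs KO+P 21 of the 32 were called lower, as were 2.51% of tested genes. Among the 21 were Slc7a3 (−4.91, edgeR adjusted p = 0.0179), Chac1 (−4.32, edgeR adjusted p = 0.00445), Slc7a5 (−2.99, edgeR adjusted p = 0.00142) and Atf4 (−1.96, edgeR adjusted p = 0.0123).

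Against untreated cells, 3 genes of the list were called lower with rapamycin in KO cells, the amino acid transporters Slc7a5 (−1.56, edgeR adjusted p = 0.0405) and Slc1a5 (−1.21, edgeR adjusted p = 0.0289) and the receptor Vldlr (−1.49, edgeR adjusted p = 0.0402). In WT cells the calls were Vldlr (−1.98, edgeR adjusted p = 0.0254) and Slc7a5 (−1.78, edgeR adjusted p = 0.0481). Of all tested genes 1.51% were called with rapamycin in KO and 1.40% in WT cells. The replicate block raised the calls to 5 in KO and 4 in WT cells, adding Ddit4 and Stc2 in both. It called 4.98% and 4.56% of tested genes there. The median of the list was −0.14 in KO and −0.06 in WT cells. The sequence TGATGNAA was present in the longer window of 23 of these 32 genes (71.88%), which were listed as targets of ATF4. It was present in that of 2 of the 26 one-carbon genes (7.692%) and 4 of the 23 amino acid neighbours (17.39%). In the shorter window, searched first, it was present in 6 genes of the ATF4 list (18.75%), 0 one-carbon genes and 2 amino acid neighbours (8.696%). There the enzymes (1 of 10, 10%) and the amino acid neighbours had similar shares.

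**Figure D4:**
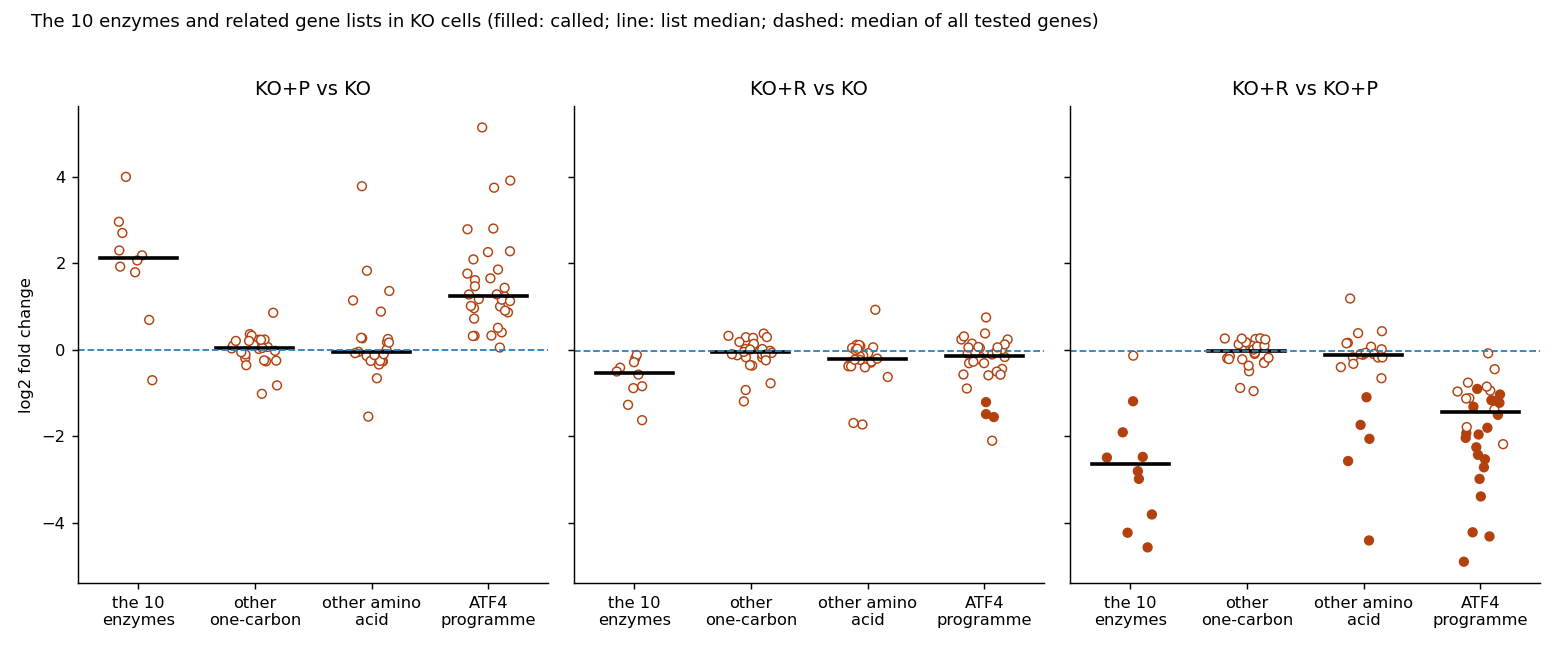
Log2 fold changes in KO cells of the 10 enzymes, 26 other one-carbon genes, 23 other amino acid genes and 32 genes of the ATF4 list, with the list median as a bar and the median of all tested genes dashed. No gene is called in KO+P vs KO, 3 of the ATF4 list are called in KO+R vs KO, and 9, 0, 5 and 21 genes are called lower in KO+R vs KO+P.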

How the data were processed

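RNA was sequenced by the authors as unstranded poly(A) libraries. The expected counts and TPM values per transcript were deposited by the authors in the format of Salmon, 1 table per library. The submitters' processing notes name Salmon (1.5.2), Trim Galore (0.6.7), HTSeq (0.13.5), DESeq2 (1.34.0) and GRCm39, and Salmon's transcript index is not given in the sources used here. The expected counts were not scaled between libraries by the authors, and the deposited TPM values are scaled to effective length and library. Of 140789 transcripts, 139544 (99.12%) were found in GENCODE's annotation (GRCm39). Unmatched transcripts held 0.395 to 0.566% of counts and were dropped.

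Counts were summed per gene, rounded, filtered with filterByExpr and scaled by TMM. All 16 libraries were fitted in 1 model of 6 groups with edgeR (4.0.16, R 4.3.3) and glmQLFTest, with 10 residual degrees of freedom. Comparisons were contrasts of it, and interactions were called at the adjusted p alone. All groups shared an estimate of spread because WT+P and WT+R held 2 libraries each. The biological coefficient of variation was 32.3% (19.0% with the replicate block). Correlations were computed on log2 CPM (prior count 2). The fits were tested on simulated counts with an even spread and no replicate effect, unlike these libraries. That test does not check the calls under the spread seen here.

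Same-numbered libraries of compared KO groups correlated in their deviations from group means at 0.189 to 0.619 (KO and WT), 0.307 to 0.581 (KO+P and KO), 0.414 to 0.620 (KO+R and KO) and 0.334 to 0.551 (KO+R and KO+P), each over 3 pairs, so the numbers were taken to pair them. Over all 36 same-numbered pairs of libraries from different groups the correlation was 0.032 to 0.693, with a median of 0.519. Over 70 pairs with different numbers it was −0.693 to 0.395, with a median of −0.230, so the ranges overlapped. The pairing comes from the values and not from a label.

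The 10 enzymes and all lists were chosen with earlier results of these data known. From the lists, called genes and those with the largest differences were named, and the 5 genes most like the 10 enzymes. Atf4, Glul, Tyms and Nupr1 as calls of the block, and the called or most abundant marker genes, were named after their values were seen. Single values of some listed genes are not reported here. Alternatives were DESeq2 (1.42.0), the replicate block, DESeq2 size factors, no filter on low counts, only the compared groups, no fold threshold and leaving out each library. The authors' alignment and counting with STAR and HTSeq were not used here.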

Additional observations from a re-analysis of the deposited data

How the results depend on the processing

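The counts of called enzymes depended on the setting where propranolol was compared. In KO+P vs KO edgeR called none, 1 with the replicate block and 6 with no filter on low counts, and DESeq2 called 8 with or without the block. Over all genes edgeR called 1, 21 with the block and 52 with no filter, and DESeq2 called 164 without and 933 with the block. In WT+P vs WT the numbers of enzymes were 0, 0, 2 and, for DESeq2, 6 either way but not the same 6. The block lost Phgdh (DESeq2 adjusted p from 0.0356 to 0.106) and Psat1 (0.0198 to 0.0864) and gained Psph (0.0523 to 0.0488) and Pycr1 (0.0744 to 0.0258). Over all genes the numbers were 1, 12, 36, 119 and 157, in the same order of settings. In KO+R vs KO the replicate block, DESeq2 with the block and edgeR on the compared groups alone each gave 1 call. DESeq2 without the block gave 2, of which the block lost Psat1. Over all genes those settings called 739, 1123, 277 and 473 in that order, against 224 in the main fit. In WT+R vs WT+P the 2 calls of edgeR became 6 with the replicate block, 6 with no filter and 7 with DESeq2. They became 9 with DESeq2 and the block, and 0 on the compared groups alone. Over all genes 194 calls became 731, 291, 635, 1243 and 0 in the same order, so the totals rose and fell with the setting too. In KO+R vs KO+P the 9 calls became 2 on the compared groups alone and stayed within 1.5 times under the other settings that kept all libraries. Over all genes 606 calls became 101 on the compared groups alone. With 1 library left out, calls ranged from 0 to 7 in KO+P vs KO and 4 to 9 in KO+R vs KO+P. Over all genes they ranged from 1 to 332 and from 208 to 1173. In WT+P vs WT and WT+R vs WT+P some of these fits left 1 library in a group, so their calls are not given. The cause was not tested. Where an arm kept 1 library, it was assumed to vary like the other groups. KO vs WT, WT+R vs WT and both interactions gave 0 calls in all settings run, and so did the block fitted to all libraries but WT replicate 1, a setting chosen after the data were seen. In edgeR, pairing by replicate number changed no other call among the 10 enzymes.

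Of 1140 repeats of single log2 fold changes, 76 changed sign, and none of those was of a called difference. With the replicate block, first in edgeR and then in DESeq2, these were Aldh1l2 in KO vs WT (−0.021 and −0.039), Asns in WT+R vs WT (−0.18 and −0.18), the propranolol interaction of Asns (0.14 and 0.14) and the rapamycin interactions of Psat1 (0.093 and 0.087) and Aldh1l2 (0.046 and 0.17). With 1 library left out, KO vs WT ran from −0.13 to 0.43 for Psat1, −0.14 to 0.86 for Mthfd2, −0.71 to 0.55 for Aldh1l2, −0.0059 to 0.28 for Asns and −0.26 to 0.86 for Pycr1. WT+R vs WT ran from −3.68 to 0.77 for Aldh1l2, −0.10 to 0.17 for Asns and −0.26 to 1.32 for Pycr1, and KO+R vs KO from −0.97 to 0.16 for Aldh1l2 and −0.46 to 0.27 for Pycr1. KO+R vs KO+P ran from −0.27 to 0.043 for Shmt1. Propranolol interactions ran from −0.67 to 0.78 for Phgdh, −0.66 to 0.90 for Psat1, −0.51 to 1.14 for Shmt2, −0.92 to 1.05 for Mthfd2, −0.16 to 0.45 for Mthfd1l, −0.23 to 1.15 for Aldh1l2, −0.68 to 1.23 for Asns and −0.62 to 0.80 for Pycr1. Rapamycin interactions ran from −0.71 to 0.59 for Phgdh, −0.51 to 0.61 for Psat1, −0.060 to 0.14 for Shmt2, −0.13 to 0.23 for Mthfd1l, −1.33 to 3.12 for Aldh1l2 and −1.52 to 0.069 for Pycr1. The lowest count of a library was 2 for Aldh1l2, 29 for Pycr1 and 49 for Shmt1.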
